A study of Mus musculus with 2 samples.

Results

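The genes examined were 10 genes of prostaglandin synthesis and reception, found by their symbols in the deposited table of 22156 genes from primary chondrocytes. They were the phospholipases *Pla2g4a* and *Pla2g4b*, the cyclooxygenases *Ptgs1* and *Ptgs2*, the prostaglandin E synthase *Ptges*, the prostaglandin E2 receptors *Ptger1*, *Ptger2*, *Ptger3* and *Ptger4*, and the prostaglandin D2 receptor *Ptgdr2*. The study compared rib cartilage chondrocytes of newborn *Myl3*-KO mice with those of control mice by RNA sequencing, with 1 library per genotype and therefore no replicates. In *Myl3*-KO mice (Col2a1-Cre; Myl3 flox/flox) the Cre recombinase is driven by the *Col2a1* promoter, so that deletion is limited to cells that have used this promoter. In the study's methods the controls were littermates with the floxed allele alone, whereas the sample labels call them WT. All animals were on the C57BL/6J background. The cells were grown as a monolayer in medium with serum and received no treatment. The number of animals behind each library is not given in the sources used here.

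Prostaglandins are lipid signals made from arachidonic acid. Cytosolic phospholipase A2 frees this fatty acid from membranes, a cyclooxygenase turns it into prostaglandin H2, and terminal synthases convert prostaglandin H2 into the individual prostaglandins. Prostaglandin E2 acts on the receptors EP1 to EP4, of which EP2 and EP4 raise cAMP, EP3 mainly lowers it and EP1 is linked to calcium. In cartilage, prostaglandin E2 made through the inducible cyclooxygenase is a well known mediator of inflammation and osteoarthritis.

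The control library totalled 17612435 expected counts and the *Myl3*-KO library 13477977, so equal counts correspond to a higher level in *Myl3*-KO. Counts were therefore divided by the library total to give CPM, the count scaled to equal library totals. Counts under 3 were raised to 3, and *Myl3*-KO was set over control as a log2 ratio. A floor of 3 counts corresponded to 0.170 CPM (control) and 0.223 CPM (*Myl3*-KO). All ratios compare 2 libraries, not 2 genotypes, and their 95% intervals (Clopper-Pearson) cover counting error only. *Myl3* itself had 0 counts in both libraries, so the labels could not be checked against the deleted gene. Of 11 chondrocyte marker genes in the table, 4 (*Acan*, *Matn1*, *Matn3* and *Hapln1*) had 0 counts in both libraries. *Sox9*, the master transcription factor of chondrocytes, was lower in *Myl3*-KO (866 and 480 counts, log2 ratio -0.47, 95% interval -0.63 to -0.30). The other 3 markers with at least 10 counts over both libraries had ratios above 0 with intervals that held 0. They were *Col2a1* (30 and 27 counts, log2 ratio 0.23), *Col11a1* (121 and 99 counts, 0.10) and *Prg4* (7 counts in each, 0.39). The remaining markers were near absent, with *Col9a1* at 0 and 1 counts, *Col9a2* at 0 and 2 and *Comp* at 1 and 2. The chondrocyte markers summed to 58.2 CPM (control) and 45.9 CPM (*Myl3*-KO), of which *Sox9* made up 49.2 and 35.6 CPM. The fibroblast markers summed to 17864.5 and 21387.7 CPM, of which *Dcn* (log2 ratio -1.64) and *Lum* (-1.36) were lower in *Myl3*-KO, while the other fibroblast genes entered lay between 0.01 and 0.61. Macrophage and leukocyte markers summed to 5.06 CPM (control) and 4.67 CPM (*Myl3*-KO), with *Adgre1*, *Tyrobp* and *Itgam* at 0 in both, and all 6 mast cell markers were at 0. Endothelial markers summed to 1.65 and 3.04 CPM and muscle markers to 0.284 and 0.0742 CPM. In bulk RNA, fewer cells of a type and less RNA per cell cannot be told apart, and the part of these cells in the values below was not tested.

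Of the 10 genes, 7 had at least 10 counts over both libraries and entered the comparison, as did 12431 genes of the table. *Ptgdr2* and *Pla2g4b* entered through their *Myl3*-KO counts alone, so a large ratio was built into their entry. Of the other genes, *Ptger4* had 6 counts in all, and *Ptger2* and *Ptger3* had 0 counts in both libraries. In short, the phospholipase *Pla2g4a* and the cyclooxygenase *Ptgs2* were slightly lower in *Myl3*-KO, *Ptgs1* and *Ptges* showed no difference beyond counting error, and *Ptger1*, *Ptgdr2* and *Pla2g4b* were higher, on counts that were not whole numbers and are therefore uncertain.

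**Figure D1:**
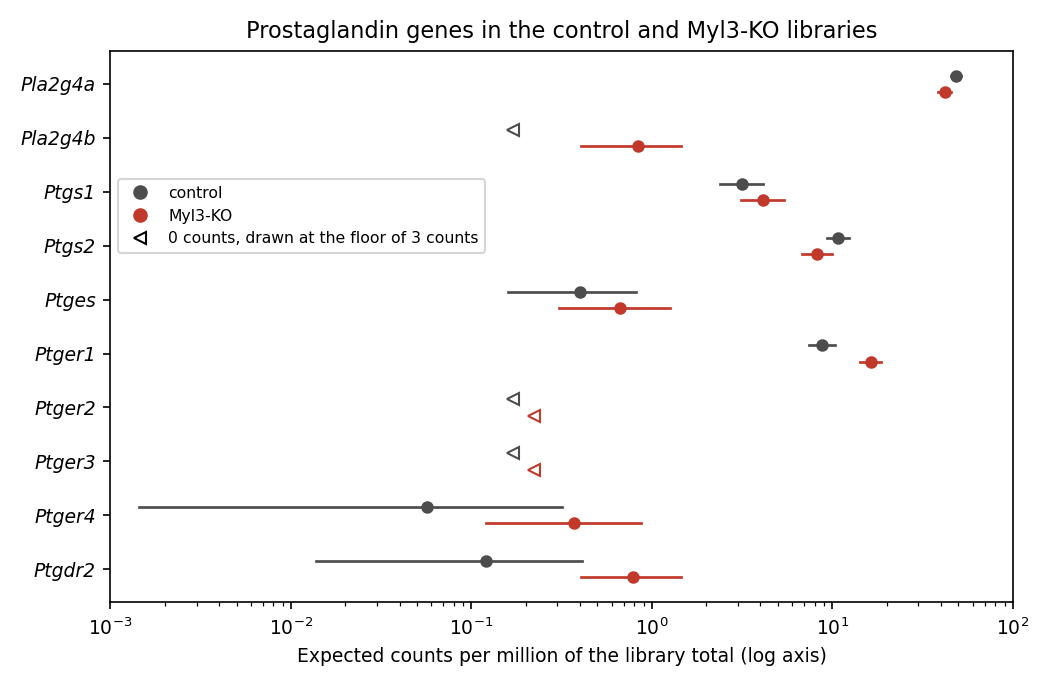
CPM (log axis) for each of the 10 genes in the control (grey) and *Myl3*-KO (red) library. Lines are 95% exact Poisson intervals of the count, divided by the library total, and open triangles mark 0 counts, drawn at the floor of 3 counts. *Pla2g4a* is the highest gene in both libraries at 48.6 and 42.1 CPM, and *Ptger2* and *Ptger3* are at 0 in both.

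Levels of different genes were compared per length, with the deposited FPKM values (fragments per kilobase of gene, scaled to the library) and exact Poisson intervals of the counts carried over to them. In the control, *Pla2g4a* was the highest at 17.02 FPKM (15.9 to 18.2), above *Ptgs2* at 2.42 (2.09 to 2.79), *Ptger1* at 1.87 (1.59 to 2.19) and *Ptgs1* at 1.11 (0.838 to 1.44). *Ptgs2* and *Ptger1* did not differ beyond their intervals, whereas *Ptgs1* lay below both. *Ptges* followed at 0.11 FPKM, *Ptgdr2* at 0.05 and *Ptger4* at 0.02, and their intervals overlapped one another.

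In *Myl3*-KO, *Pla2g4a* was again the highest at 14.73 FPKM (13.5 to 16.0), followed by *Ptger1* at 3.48 (3.03 to 3.97), *Ptgs2* at 1.85 (1.52 to 2.23) and *Ptgs1* at 1.45 (1.10 to 1.88). Here *Ptger1* lay above *Ptgs2* beyond their intervals, and the cyclooxygenases overlapped. *Pla2g4b* and *Ptgdr2* were both at 0.30 FPKM, *Ptges* at 0.18 and *Ptger4* at 0.11. Among the genes that entered, the FPKM of *Pla2g4a* was at percentile 60.5 in the control and 56.4 in *Myl3*-KO, that of *Ptgs2* at 22.3 and 18.6, and that of *Ptges* at 1.33 and 2.57. The members other than *Pla2g4a* thus lay in the lower part of the genes that entered.

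The route begins with the phospholipases. *Pla2g4a*, which encodes the calcium-activated cytosolic phospholipase A2 that supplies most arachidonic acid for prostaglandins, lies on chromosome 1 of GRCm38 from 149829618 to 149961290 on the minus strand. Counts of *Pla2g4a* were 856 (control) and 567 (*Myl3*-KO), or 48.6 and 42.1 CPM. The log2 ratio was -0.21 (95% interval -0.36 to -0.05). The gene was thus 1.16-fold lower in *Myl3*-KO, a small difference that was larger than counting error.

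*Ptgs2*, the inducible cyclooxygenase also called COX-2, lies 138.7 kb from *Pla2g4a* on the same chromosome, from 150100031 to 150108227 on the plus strand. Its 190 control counts and 111 *Myl3*-KO counts, or 10.8 and 8.24 CPM, gave a log2 ratio of -0.39 (95% interval -0.74 to -0.04). *Ptgs2* was thus 1.31-fold lower in *Myl3*-KO, by more than counting error. *Ptgs1*, the constitutive cyclooxygenase COX-1 (chromosome 2, 36230426 to 36252272, plus strand), had 56 counts in each library, or 3.18 CPM (control) and 4.15 CPM (*Myl3*-KO). Its log2 ratio was 0.39 (95% interval -0.17 to 0.95), so that a difference was not detectable at this depth.

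The pair of cyclooxygenases can be compared without any scaling of the libraries, as the share of *Ptgs2* among the reads of both. This share was 77.2% in the control (Clopper-Pearson 95% interval 71.5 to 82.3) and 66.5% in *Myl3*-KO (58.8 to 73.6). The log2 odds ratio was -0.77 (exact conditional 95% interval -1.44 to -0.11). Within these libraries the balance lay further towards *Ptgs1* in *Myl3*-KO by more than counting error. Summed over both cyclooxygenases, the counts were 246 and 167 and the log2 ratio was -0.17 (95% interval -0.47 to 0.12). The shares of *Ptgs2* in the sum with its neighbour *Pla2g4a* were 18.2% and 16.4%, with a log2 odds ratio of -0.18 (-0.57 to 0.20).

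The promoters of the cyclooxygenases are shown because the ratio of their mRNAs differed between the libraries. The windows are from RefSeq on GRCm38.p6, run 5′ to 3′ from 250 bases before the annotated start to 50 after it, and 8 of the 10 genes matched an entry. Capitals mark any match, on either strand, to the cAMP response element core (TGACGT), the E-box (CACGTG), the C/EBP motif (TTNNGCAA), the GC box (GGGCGG), the TATA box (TATAAA) or the NF-kB motif. *Ptgs2* is at chr1:150099781-150100080 and *Ptgs1* at chr2:36230176-36230475, both on the plus strand.
Ptgs2: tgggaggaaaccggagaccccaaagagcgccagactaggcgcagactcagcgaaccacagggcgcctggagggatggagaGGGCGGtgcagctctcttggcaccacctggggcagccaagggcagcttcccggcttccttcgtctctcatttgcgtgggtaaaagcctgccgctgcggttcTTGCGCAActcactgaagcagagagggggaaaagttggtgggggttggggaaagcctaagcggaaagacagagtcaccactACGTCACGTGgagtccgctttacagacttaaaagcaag
Ptgs1: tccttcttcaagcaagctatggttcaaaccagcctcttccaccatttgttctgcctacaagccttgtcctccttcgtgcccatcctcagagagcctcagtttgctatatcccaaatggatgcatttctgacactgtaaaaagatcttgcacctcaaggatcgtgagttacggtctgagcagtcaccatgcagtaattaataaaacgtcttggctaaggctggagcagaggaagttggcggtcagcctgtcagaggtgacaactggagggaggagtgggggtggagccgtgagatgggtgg

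The *Ptgs2* window held a GC box from position -170 to -165, a C/EBP motif from -69 to -62, and, after the annotated start, a cAMP response element core on the minus strand from 13 to 18 that shares its last bases with an E-box from 17 to 22. Positions are counted from 1 at the annotated start, and from -1 for the base before it. The *Ptgs1* window held 0 matches to the 6 motifs. Of the 32851 promoter windows in the RefSeq table, 7.51% hold the cAMP response element core, 7.15% the E-box, 10.8% the C/EBP motif, 35.7% the GC box, 13.6% the TATA box and 4.51% the NF-kB motif. The matches describe the letters of these windows and were not set against any binding data. Among the other members, GC boxes were found in *Ptges*, *Ptger3*, *Ptger4* and *Ptgdr2* and a C/EBP motif in *Ptger2*.

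Downstream of the cyclooxygenases, *Ptges* (chromosome 2, 30889471 to 30929863, minus strand) encodes the inducible microsomal prostaglandin E synthase that works together with COX-2. Its reads numbered 7 (control) and 9 (*Myl3*-KO). The log2 ratio of 0.75 had a 95% interval from -0.84 to 2.41, which is too wide to give a direction.

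Reads assigned to the prostaglandin E2 receptors came almost wholly from *Ptger1*, which encodes the calcium-linked receptor EP1. Its 154.98 control and 220.33 *Myl3*-KO expected counts, or 8.80 and 16.3 CPM, gave a log2 ratio of 0.89 (95% interval 0.59 to 1.20). The difference was larger than counting error and did not reach 2-fold. The counts of *Ptger1* were not whole in either library, and its level is uncertain. *Ptger4*, which encodes EP4, had 1 and 5 counts, a 6.53-fold ratio whose 95% interval on the log2 scale ran from -0.45 to 8.27. *Ptger2* (EP2) and *Ptger3* (EP3) were not detected, and in each library 0 counts have an upper exact 95% Poisson bound of 3.69 counts. No difference could therefore be read for EP2, EP3 or EP4 at this depth.

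*Ptgdr2*, which encodes the prostaglandin D2 receptor DP2 known from type 2 immune cells, lies on chromosome 19 from 10937160 to 10942511. Its 2.13 control and 10.57 *Myl3*-KO counts gave a 6.48-fold ratio (2.70 on the log2 scale, 95% interval 0.65 to 6.06), or 2.20 with the control count raised to the floor of 3. *Pla2g4b*, a further cytosolic phospholipase A2 gene on chromosome 2 from 120033417 to 120043030, had 0 control and 11.29 *Myl3*-KO counts. With the control count set at the floor of 3, the counted level was 4.92-fold higher in *Myl3*-KO (2.30 on the log2 scale). This value leaves out the counting error of both libraries, and the lower end of the 95% interval was 1.71 on the log2 scale. Reads of *Pla2g4b* are also shared with an overlapping gene, and the ratio summed over both had an interval that held 0. *Ptgdr2* and *Pla2g4b* were the only members past 2-fold, each on 12.7 counts or fewer over both libraries.

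Past 2-fold and higher in *Myl3*-KO were 2.16% of all genes that entered, and 1.19% were lower. Among the 578 genes with 10 to under 20 counts over both libraries, where *Ptgdr2*, *Pla2g4b* and *Ptges* lie, these shares were 18.5% and 14.7%. Past 2-fold were 2 of the 7 members higher and 0 lower. The interval of the ratio lay wholly above 0 for 3 members and wholly below it for 2, against 22.2% and 20.1% of all genes that entered. If libraries of 1 genotype are assumed to vary by a coefficient of variation of 0.2, the interval of 0 members lies below 0 and that of 3 above it, and at 0.4 that of 0 members lies on either side. The median log2 ratio of the 7 members was 0.75, and that of all genes that entered was 0.02. Since *Ptgdr2* and *Pla2g4b* entered through *Myl3*-KO alone, neither the counts nor the median support a direction for the members.

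**Figure D2:**
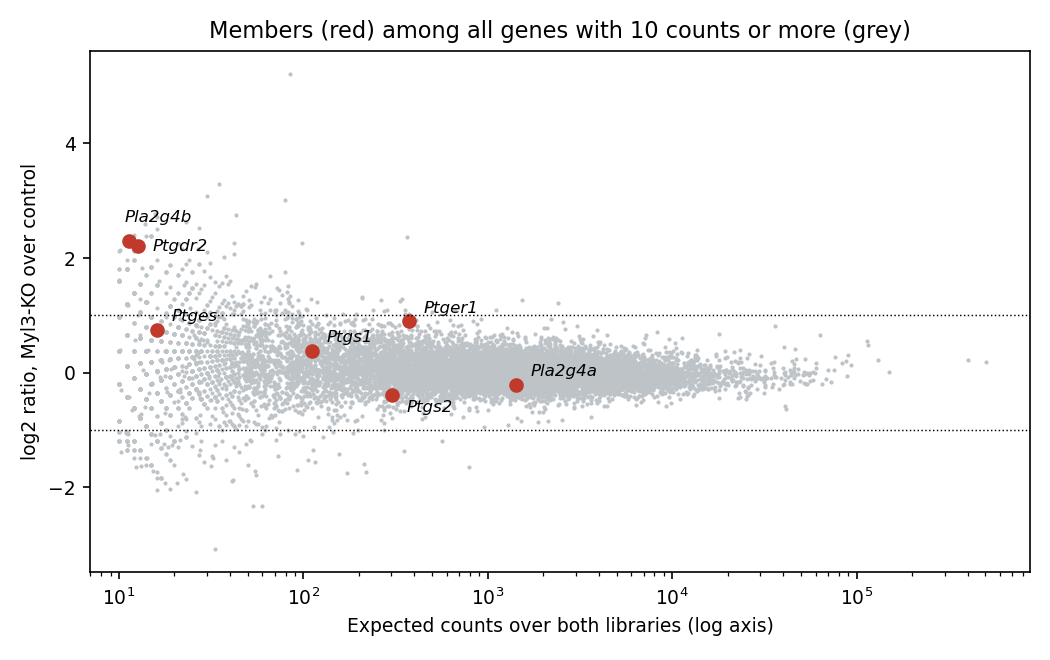
Log2 ratio of *Myl3*-KO over control against the expected counts over both libraries (log axis) for the 12431 genes that entered (grey) and the 7 members among them (red, labelled). Dotted lines mark 2-fold, and *Ptgdr2* and *Pla2g4b* lie above it at the low-count end, where ratios of all genes spread most.

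The 3 members that were higher beyond counting error are also the 3 members whose counts were not whole numbers. For *Pla2g4b* and *Ptgdr2*, the exons were compared with those of other genes in the GENCODE M21 annotation on GRCm38. *Pla2g4b* shares 3878 of its 5831 exonic bases (66.5%) and 99.6% of its coding bases with *Gm28042*, which runs on the same strand from an upstream start, and 792 bases with *Sptbn5* on the opposite strand. *Ptgdr2* shares 1031 of 2644 exonic bases (39.0%), none of them coding, with *Ccdc86* on the opposite strand.

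**Figure D3:**
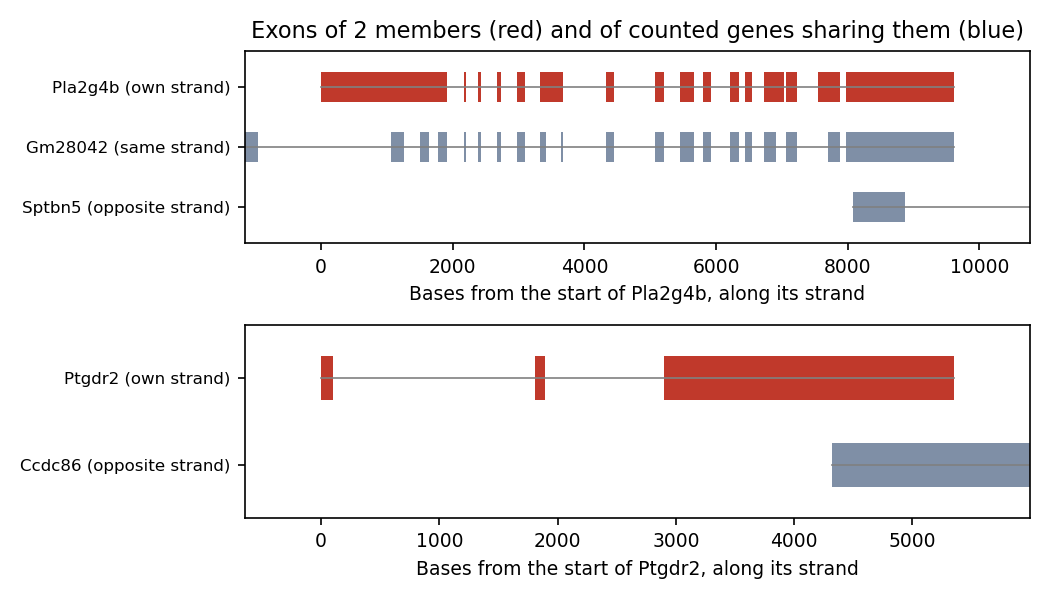
Exons of *Pla2g4b* and *Ptgdr2* (red) and of the counted genes that share exonic bases with them (grey-blue), in bases from the start of each member along its strand. *Gm28042* exons cover 66.5% of those of *Pla2g4b* and *Ccdc86* exons 39.0% of those of *Ptgdr2*.

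Sequence words of 31 bases restate this overlap, since exons at the same place hold the same words when both strands are counted. Of the words in the transcripts of *Pla2g4b*, 65.1% also occurred in *Gm28042* on either strand, and of those of *Ptgdr2* 38.3% in *Ccdc86*. In contrast, 0% of the words of *Ptgs2* and *Ptger3*, 0.219% of those of *Pla2g4a*, 0.357% of those of *Ptges*, 3.26% of those of *Ptgs1* and 4.24% of those of *Ptger2* occurred in any other gene. *Ptger4* shared 15.2% of its words, mostly with the pseudogene *Gm15937*. Whether the counting used strand is not given in the sources used here, and without strand reads of *Ptgdr2* and *Ccdc86* cannot be told apart where they overlap.

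Counts of *Pla2g4b* and *Ptgdr2* were therefore also summed with those of the overlapping gene, a choice made after the values were seen. For *Pla2g4b*, the partner *Gm28042* had 29.9 and 24.56 counts, and the sum of 29.9 and 35.85 gave a log2 ratio of 0.65 (95% interval -0.09 to 1.40). *Sptbn5*, which overlaps the 3′ end, had 8 and 6 counts, and with it included the log2 ratio was 0.53 (-0.14 to 1.20). A difference in the sum over this locus was not detectable at this depth, although 31.5% of the *Pla2g4b* and *Gm28042* reads were assigned to *Pla2g4b* in *Myl3*-KO (16.3 to 48.1) and 0% in the control (up to 11.6). For *Ptgdr2*, the partner *Ccdc86* had 588.87 and 434.43 counts, and the sums of 591 and 445 are whole numbers although neither gene's count is. Their log2 ratio was -0.02 (-0.20 to 0.16). *Ptgdr2* took 0.360% of the sum in the control (95% interval 0.041 to 1.22) and 2.38% in *Myl3*-KO (1.24 to 4.38). The log2 odds ratio of this share was 2.90 (exact conditional 95% interval 0.69 to 6.12). Both members entered through *Myl3*-KO alone, so a higher share there was built into their entry. These shares and their intervals therefore add no support for a difference. Summed with *Gm28042*, *Pla2g4b* was not past 2-fold. Almost all reads of the other sum were assigned to *Ccdc86*, so that sum cannot show a difference in *Ptgdr2*.

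**Figure D4:**
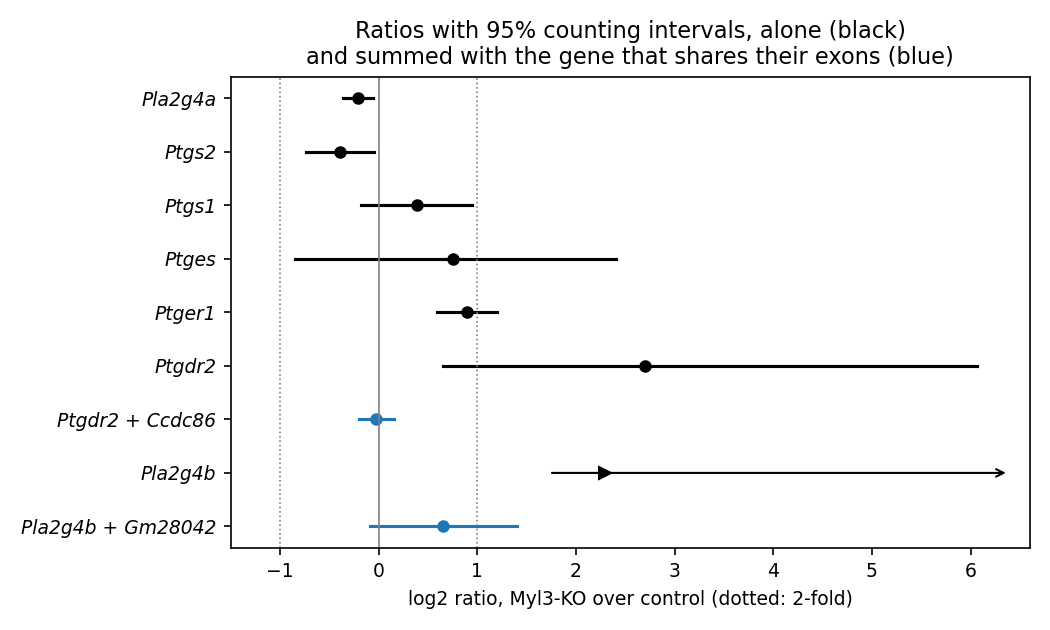
Log2 ratios of *Myl3*-KO over control with 95% counting intervals for the 7 members that entered (black) and for *Ptgdr2* and *Pla2g4b* summed with the gene that shares their exons (blue), where dotted lines mark 2-fold, the arrow a bound with no upper end, and *Ptgdr2* alone is drawn at its ratio without the floor. *Pla2g4b* with *Gm28042* is at 0.65 and *Ptgdr2* with *Ccdc86* at -0.02.

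Across the table, genes that share exons can be set beside genes that share none. Of the 2561 genes that entered and share exonic bases with another gene of the table, 2.03% were past 2-fold higher and 1.41% lower, against 1.87% and 0.996% of the 9638 that share none. For counts that were not whole in at least 1 library the shares past 2-fold were 2.31% higher and 2.6% lower, against 2.14% and 1.01% for whole counts.

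Around the 10 members, further genes of arachidonic acid handling were examined by their role. Of 20 other phospholipase A2 genes and their relatives, 7 entered and 1 was past 2-fold higher, beside 2.16% of all genes that entered. The median log2 ratio of the 7 was -0.10. Their intervals lay wholly above 0 for 2 and wholly below for 1, beside 22.2% and 20.1% of all genes. *Plaa*, an activator protein rather than an enzyme, was the most abundant with 3444 and 2297 counts (log2 ratio -0.20, 95% interval -0.28 to -0.12), while the calcium-independent *Pla2g6* (479 and 435 counts, 0.25, 0.06 to 0.44) and *Pla2g16* (183 and 187 counts, 0.42, 0.12 to 0.72) were higher. *Pla2g7*, which encodes the secreted enzyme that breaks down platelet-activating factor, was past 2-fold on 5 and 10 counts, with an interval from -0.30 to 3.28. Among all genes with 10 to under 20 counts over both libraries, 18.5% were past 2-fold higher. The secreted group II enzymes *Pla2g2a*, *Pla2g2c* and *Pla2g2f* had 0 counts in both libraries, and *Pla2g2d* and *Pla2g2e* had 0 and 1.

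Of 10 other terminal synthase genes in the table, 5 entered, 0 were past 2-fold and the median log2 ratio was -0.15. Their intervals lay wholly above 0 for 1 and wholly below for 3, beside 22.2% and 20.1% of all genes. *Ptges3*, the cytosolic prostaglandin E synthase and Hsp90 co-chaperone p23, had 6396 and 4404 counts (log2 ratio -0.15, 95% interval -0.21 to -0.10). *Ptges2*, a membrane-associated prostaglandin E synthase, had 324 and 207 counts (-0.26, -0.52 to -0.004). Both were slightly lower, and per length *Ptges3* at 182 and 164 FPKM and *Ptges2* at 3.70 and 3.09 FPKM were far above *Ptges*. *Akr1b3*, an aldose reductase with prostaglandin F synthase activity, was lower (2758 and 1652 counts, -0.35, -0.44 to -0.26) and its relative *Akr1b8* higher (1285 and 1198 counts, 0.28, 0.17 to 0.40). The prostacyclin synthase gene *Ptgis* had 0 counts in both libraries, the thromboxane synthase gene *Tbxas1* 0 and 1, the prostaglandin D synthase genes *Ptgds* 1 and 3 and *Hpgds* 7 and 2.

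Receptors for the other prostanoids were sparse as well. The prostacyclin receptor gene *Ptgir* had 25 and 23 counts (log2 ratio 0.27, 95% interval -0.62 to 1.14) and the thromboxane receptor gene *Tbxa2r* 5 and 8 (1.06, -0.73 to 3.02). *Ptgfr* had 2 and 0 counts and *Ptgdr* 0 in both. Differences in these receptor genes were not detectable at this depth.

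Of the transport and breakdown genes, 6 entered and 0 were past 2-fold. All 6 that entered had intervals that held 0, with a median log2 ratio of -0.09. *Ptgr1*, a reductase that inactivates prostaglandin metabolites, had 914 and 690 counts (log2 ratio -0.02, 95% interval -0.16 to 0.12). The exporter gene *Abcc4* had 255 and 175 counts (-0.16, -0.44 to 0.13). *Hpgd*, which starts the breakdown of prostaglandins, had 13 in each library, and the uptake carrier *Slco2a1* had 1 and 2.

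In the lipoxygenase and leukotriene branch, which uses the same fatty acid, 5 of 17 genes entered, 0 were past 2-fold and the median log2 ratio was 0.09. *Lta4h*, the leukotriene A4 hydrolase, had 2055 and 1510 counts (log2 ratio -0.06, 95% interval -0.16 to 0.04). Its partner enzyme *Alox5* had 2 and 0 counts, and *Alox5ap*, which hands arachidonic acid to it, had 0 in both. The peroxidase gene *Gpx4* was lower (5688 and 3782 counts, -0.20, -0.26 to -0.14). Of the 5 genes, 1 had an interval wholly above 0 and 1 wholly below, beside 22.2% and 20.1% of all genes.

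All 22 genes of a list for the cAMP relay below EP2 and EP4 entered, 0 were past 2-fold and the median log2 ratio was 0.11, with 17 above 0 and 5 below, beside 6553 above and 5878 below among all genes that entered. Intervals lay wholly above 0 for 5 of the 22 genes and wholly below for 1, beside 22.2% and 20.1% of all genes. The adenylyl cyclases *Adcy7* (537 and 642 counts, log2 ratio 0.64, 95% interval 0.48 to 0.81) and *Adcy6* (1165 and 1196 counts, 0.42, 0.31 to 0.54) were higher, as was the phosphodiesterase *Pde10a* (80 and 109 counts, 0.83, 0.40 to 1.27). The interval of the protein kinase A subunit gene *Prkaca* lay below 0 (2742 and 1974 counts, log2 ratio -0.09, -0.17 to -0.004). *Gnas*, which encodes the stimulatory G protein, had a log2 ratio of 0.02 (-0.02 to 0.05). The cAMP-responsive nuclear receptor genes *Nr4a1* (63 and 62 counts), *Nr4a2* (48 and 50) and *Nr4a3* (50 and 55) had intervals that held 0.

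Of 26 genes known to induce or accompany *Ptgs2* and *Ptges*, 22 entered, 2 were past 2-fold higher and 0 lower, and the median log2 ratio was 0.06. The share past 2-fold higher among all genes was 2.16%, and intervals lay wholly above 0 for 7 of the 22 genes, beside 22.2% of all genes. *Egr1*, an immediate early transcription factor, had 108 and 177 counts (log2 ratio 1.10, 95% interval 0.75 to 1.46), and the cytokine gene *Il6* had 8 and 17 (1.47, 0.18 to 2.89), or 25 counts in all. The intervals of *Nfkb2* (0.39, 0.28 to 0.50), *Nfkb1* (0.16, 0.05 to 0.27), *Rela* (0.14, 0.02 to 0.25), *Zfp36* (0.56, 0.18 to 0.95) and *Anxa1* (0.25, 0.21 to 0.30) also lay above 0. *Zfp36* encodes a protein that destabilises AU-rich mRNAs, and *Anxa1* an inhibitor of phospholipase A2. *Il1b* and *Tnf*, classical inducers of *Ptgs2*, had 0 counts in both libraries, and the interleukin 1 receptor gene *Il1r1* had an interval that held 0 (402 and 313 counts, 0.02, -0.19 to 0.24).

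**Figure D5:**
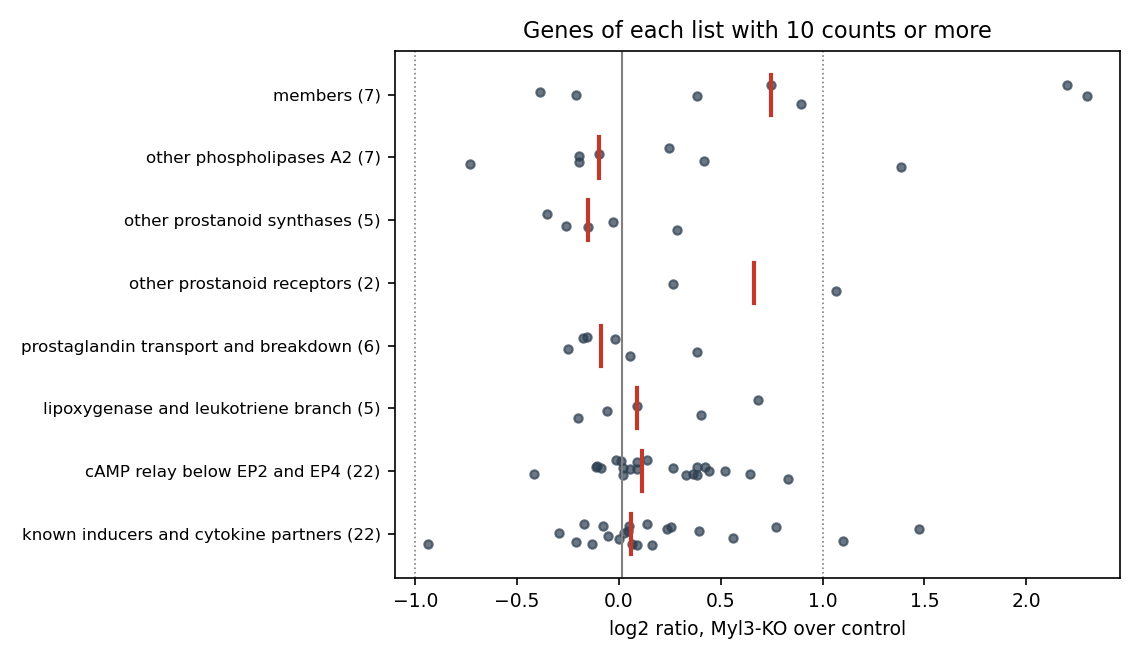
Log2 ratio of *Myl3*-KO over control for the genes that entered, by list, where red bars are list medians, the grey line is the median of all genes that entered (0.02) and dotted lines mark 2-fold. Numbers in parentheses are genes entered, and the members' median of 0.75 stands beside medians from -0.15 to 0.66 in the other lists.

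Over the whole arachidonic acid metabolism pathway, as the deposited table annotates it from KEGG, 45 of 89 genes had 0 counts in both libraries and 23 entered. Their median log2 ratio was 0.03. Only *Pla2g4b* was past 2-fold, beside 2.16% higher among all genes that entered. Intervals lay above 0 for 6 of the 23 genes and below 0 for 6, beside 22.2% and 20.1% of all genes. Besides genes named above, those above 0 included the carbonyl reductase *Cbr2* (407 and 457 counts, log2 ratio 0.55, 95% interval 0.36 to 0.75) and *Cyp4f13* (0.45, 0.14 to 0.76), and those below 0 the glutathione peroxidase relative *Gpx7* (405 and 230 counts, -0.43, -0.67 to -0.19).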

How the data were processed

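Primary chondrocytes were profiled by RNA sequencing, with 1 library of each genotype. Expected counts were deposited by the authors as estimated reads per gene with no normalization, beside FPKM values scaled by gene length and library. The submitters' processing notes name the build GRCm38 (mm10), while the aligner, the counting tool and the use of strand are not given in the sources used here. The methods describe mRNA enriched on oligo beads, the labels a SMARTER kit. The table heads the control column NC, read as control because the other is headed KO.

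CPM used the library totals of 17612435 and 13477977 counts. Genes needed 10 counts over both libraries, which left out 9725. Counts under 3 were raised to 3 for ratios and calls, except where a raw ratio is given, and expected counts were rounded for intervals. A call was a 2-fold ratio. With 1 library per group, edgeR and DESeq2 tests were not run, since no residual degrees of freedom are left, and no p-value was computed. Genes named are the members, genes that overlap them and some, not all, of the genes of the lists. The members and lists were chosen with earlier results of these data known. Alternatives were TMM (edgeR 4.0.16) and median-of-ratios (DESeq2 1.42.0) scaling, other filters, 1 added count, FPKM ratios, other fold limits, an assumed variation between libraries, and sums over overlapping genes, which for *Ptger1* are not reported here. Python 3.11.15, scipy 1.17.1 and GENCODE M21 were used.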

Additional observations from a re-analysis of the deposited data

How the results depend on the processing

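The log2 ratios of *Ptgs2* (-0.41 to -0.38), *Pla2g4a* (-0.23 to -0.21), *Ptgs1* (0.36 to 0.39), *Ptges* (0.71 to 0.75) and *Ptger1* (0.87 to 0.90) kept their sign under every scaling, filter and zero handling that could give a value, and with FPKM. TMM and median-of-ratios scaling shifted the median log2 ratio by only -0.018 and -0.024, so the constant signs add little support. The counting intervals of *Ptgs1* and *Ptges* held 0. With at least 10 counts in each library, 108 genes were past 2-fold higher and 31 lower, 0 of them members, and the members' median was 0.089 instead of 0.75 since only 4 remained. That filter also left 0 genes past 2-fold in the lists of other phospholipases, other prostanoid receptors and KEGG genes, and 1 among the inducers. The median of the other prostanoid receptors was then 0.27. With FPKM, where genes at 0 have no ratio, 1 member and 1 gene of the cAMP list were past 2-fold and the members' median was 0.55. With 1 count added, 0 genes of the list of other prostanoid receptors were past 2-fold, while the member *Ptgdr2* stayed past it (log2 ratio 2.27). Since *Ptgdr2* entered through its *Myl3*-KO count alone, this adds no support. A 1.5-fold limit gave 767 higher and 360 lower, with 4 members higher, and a 4-fold limit gave 31 and 6. With *Pla2g4b* and *Ptgdr2* summed with counted genes that share their exons, an alternative chosen after seeing the data, 0 members were past 2-fold. For *Ptgdr2* this could not have come out otherwise, since almost all reads of its sum were assigned to *Ccdc86*. Intervals that add an assumed coefficient of variation of 0.2 between libraries left 0 members lower and 3 higher, and those with 0.4 left 0 lower and 0 higher. *Ptgs2* and *Pla2g4a* are thus called lower on counting error alone. Of the 3 members higher at 0.2, *Ptgdr2* and *Pla2g4b* entered through *Myl3*-KO alone. No paired analysis was possible because each group holds 1 library. Genes under 10 counts, among them *Ptger4*, are limited by depth.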
